A study of Mus musculus with 23 samples.

Results

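Vomeronasal receptor genes encode the pheromone receptors of the vomeronasal organ, and they were examined here in 3 brain regions of mice on 2 diets. The genes were chosen by name alone, as the transcript identifiers of the array whose gene name starts with Vmn1r, Vmn2r, V1r or V2r. This gave 263 identifiers of 37932 on the array, which stand for 262 gene symbols, 169 of them type 1 and 94 type 2 identifiers, measured by 300 probes in 327 spots. RNA of the frontal cortex (FC), the striatum (ST) and the hypothalamus (HT) was hybridized to 23 Agilent arrays, 1 color each. It came from female C57BL/6 mice that were 5 weeks old at the start of the experiment and older when tissue was taken. SC mice (L52, L54, L56 and L58) had standard chow for 8 weeks, and CM mice (O52, O54, O56 and O58) could choose between the chow and a chocolate mixture for the same time. All mice then went through an 11-day behavioral battery, in which SC mice also met the chocolate mixture during limited access. Each mouse gave 1 array per region, except that CM FC had 3 arrays (O54, O56 and O58), so that the replicates are separate animals. HT is given as a thalamic region in the labels, and all 7 identifiers of the 4 thalamus markers were called higher in SC HT than in SC FC, against 3 of 7 hypothalamus markers. One array stood apart by markers of olfactory tissue, SC FC of L54, and results in FC are also given without it. Markers of neighboring brain tissue were uneven too. In FC, Adora2a, a striatal receptor gene, was at 10.63 to 10.93 (log2) on the arrays of L56, L58 and O58 and at 7.36 to 8.82 on the others. In ST, the cortical gene Slc17a7 was high on SC ST of L54 and L58 (11.68 and 12.05, others 8.01 to 10.56), the hypothalamic gene Hcrt on SC ST of L52 (15.45, others 6.73 to 10.92) and the choroid plexus gene Ttr on CM ST of O58 (18.21, others 10.61 to 14.16). In HT, the thalamus marker Prkcd was lowest on SC HT of L58 (11.62, others 13.29 to 14.05). The hypothalamus marker Agrp was highest on that array (10.89, others 6.53 to 8.97).

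The vomeronasal organ lies at the base of the nose, and its sensory neurons project to the accessory olfactory bulb. Type 1 receptors are found in the apical neurons, which signal through the G protein subunit Gnai2, and they are known for responding to small molecules of urine. Type 2 receptors have a long extracellular domain, are found in the basal neurons with Gnao1, and are known for responding to peptides and proteins. In both layers the signal opens the cation channel Trpc2. Both families are large, lie in clusters of similar genes, and are best known from the nose. Each of these samples is a bulk piece of tissue, in which fewer cells expressing a gene and less RNA per cell cannot be told apart.

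A probe of this array is a 60-base oligonucleotide, and similar receptors can have similar probes. Of the 300 receptor probes, 155 held a run of 16 bases in common with a probe of another receptor and 58 with a probe of a gene outside the family. The probes of the 8 receptors with the largest diet difference among those called in the frontal cortex, and of 4 others on which the results turn, are given to make clear what was measured. Capitals mark the longest run of bases that the probe shares with a probe of another gene, and positions, from the array annotation, are on mm9.
Vmn1r195: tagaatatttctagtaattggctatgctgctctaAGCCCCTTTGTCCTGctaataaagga
Vmn2r4: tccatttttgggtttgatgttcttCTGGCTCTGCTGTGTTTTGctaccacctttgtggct
Vmn1r52: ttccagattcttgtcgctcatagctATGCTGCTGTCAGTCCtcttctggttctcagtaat
Vmn1r56: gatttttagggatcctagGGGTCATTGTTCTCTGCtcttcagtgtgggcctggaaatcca
Vmn1r227: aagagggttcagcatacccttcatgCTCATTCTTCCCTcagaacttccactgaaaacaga
Vmn2r62: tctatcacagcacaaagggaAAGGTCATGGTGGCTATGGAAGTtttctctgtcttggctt
Vmn1r231: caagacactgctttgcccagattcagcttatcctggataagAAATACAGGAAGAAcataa
Vmn2r20: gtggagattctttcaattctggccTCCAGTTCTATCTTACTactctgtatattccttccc
Vmn1r65: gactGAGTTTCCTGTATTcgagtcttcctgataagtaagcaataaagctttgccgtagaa
Vmn1r70: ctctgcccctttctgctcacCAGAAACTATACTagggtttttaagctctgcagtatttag
Vmn2r86: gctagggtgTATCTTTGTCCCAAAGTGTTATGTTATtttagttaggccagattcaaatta
Vmn1r48: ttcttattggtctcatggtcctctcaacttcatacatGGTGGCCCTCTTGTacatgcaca

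The Vmn1r195 probe lies at chr13:22371043-22371102 on the plus strand and shares 15 bases with the probe of Vmn1r204. The Vmn2r4 probe (chr3:64192879-64192938, minus strand) shares 19 bases with that of Vmn2r3. The Vmn2r62 probe (chr7:50019930-50019989, minus strand) shares 23 bases with that of Vmn2r60, and the Vmn2r20 probe (chr6:123335340-123335399, minus strand) shares 17 with that of Vmn2r19. The longest of these shared runs, 27 bases, is between Vmn2r86 (chr10:129883289-129883348, minus strand) and Vmn2r17. In the other 7 probes the shared run was 13 to 17 bases long. They are those of Vmn1r52 (chr6:90153628-90153687, plus strand), Vmn1r56 (chr7:5147320-5147379, minus strand), Vmn1r227 (chr17:20872803-20872862, plus strand), Vmn1r231 (chr17:21026680-21026739, minus strand), Vmn1r65 (chr7:5959355-5959414, minus strand), Vmn1r70 (chr7:11219773-11219832, plus strand) and Vmn1r48 (chr6:89972465-89972524, plus strand).

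Most of these receptors gave no signal that the scanner software placed above background. A probe was tested only if it exceeded a level set by the negative control spots on at least 4 arrays, and 98 of the 263 receptor identifiers passed this filter (37.3%), against 31395 of all 37932 (82.8%). Among type 1 receptors 55 of 169 passed (32.5%), and among type 2 receptors 43 of 94 (45.7%). Of the other chemosensory families, 336 of 1105 olfactory receptor identifiers passed (30.4%), as did 9 of 35 bitter taste receptors (25.7%) and 4 of 14 trace amine-associated receptors (28.6%). A receptor that passed only through the group in which it is high had to differ between groups, so that counts over the 98 are descriptions. Of the 108 receptor probes that passed, 18 exceeded the filter level on fewer than 4 arrays of slides 1 and 2, the slides other than that of CM FC. Of the 165 that did not pass, 14 were well above background on at least 1 array, led by Vmn1r201 on 3 arrays and by Vmn1r34 and Vmn2r53 on 2 each. Over the 263, 156 were well above background on none of the 23 arrays. No receptor spot was saturated.

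The receptors that passed were unevenly spread over the gene clusters. On chromosome 7, where 118 of the 300 probes lie, 52 probes passed, whereas on chromosome 6 only 10 of 63 did. On chromosome 17 it was 11 of 47, on chromosome 13 it was 14 of 37, and on chromosome 5 it was 7 of 9. Receptor probes were poor in G and C, with a median of 36.7% (range, 25% to 48.3%) against 43.3% for all probes. The receptor probes that passed had a median of 40%.

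The number of receptor spots well above background on an array was highest in CM FC. In SC FC it was 54, 40, 48 and 38 for L52, L54, L56 and L58, and in CM FC it was 85, 89 and 84 for O54, O56 and O58. In SC ST it was 43, 52, 49 and 58, and in CM ST 50, 42, 40 and 49 for O52 to O58. In SC HT it was 71, 69, 85 and 58, and in CM HT 53, 64, 66 and 61. The CM and SC arrays did not overlap in FC and overlapped in the other two regions.

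In FC the mean was 86 ± 2.65 spots (SD, n = 3) for CM and 45 ± 7.39 (SD, n = 4) for SC, a difference of 41 spots (exact two-sided permutation test, p = 0.0286, which is the smallest p these 35 arrangements allow). After Benjamini-Hochberg adjustment over the 3 regions it was 0.0858, and without SC FC of L54 the difference was 39.3 spots. In ST the CM mean was 5.25 spots below the SC mean (-5.25, exact permutation p = 0.229), and in HT 9.75 below it (-9.75, exact permutation p = 0.2; -14 without SC HT of L58, exact permutation p = 0.0286). The difference between diets in FC exceeded that in ST by 46.2 spots (exact two-sided permutation of the diets over the 8 mice, p = 0.0286, adjusted over the 3 pairs of regions 0.0429). In this test, 2 of the 70 arrangements were as far apart as the observed one. It exceeded that in HT by 50.8 spots (p = 0.0286 by the same exact test, adjusted 0.0429), and ST and HT differed by 4.5 spots (exact p = 0.629). Spots of all genes were also more often well above background in CM FC (41481 to 42261 per array) than in SC FC (36432 to 38472). SC HT of L56, with 85 receptor spots, had 42232. As a share of all spots well above background, receptor spots were 0.205% in CM FC and 0.12% in SC FC.

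Slide moved with these counts. The arrays were on 3 slides, and slide and diet are linked in each region: slide 3 held every CM array of FC, slide 1 every CM array of ST and slide 2 every CM array of HT. The SC FC arrays were on slide 1 (L54, L56 and L58) and slide 2 (L52), so that no SC FC array shared a slide with CM FC. The SC ST arrays were on slide 1 (L52), slide 2 (L54 and L56) and slide 3 (L58), and the SC HT arrays on slide 3 (L52, L54 and L56) and slide 2 (L58). The 8 arrays of slide 1 had 38 to 50 receptor spots well above background (median, 42.5), the 8 of slide 2 had 49 to 66 (median, 56), and the 7 of slide 3 had 58 to 89 (median, 84). Against the SC array of its own slide, CM was 2.25 spots higher in ST and 3 higher in HT, so that both differences turned their direction. Each rests on a single SC array, L52 in ST and L58 in HT, and both arrays had uneven tissue markers. Slide and tissue content cannot be told apart in them, and in FC no such value exists. In FC, diet and slide cannot be told apart from these counts.

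**Figure D1:**
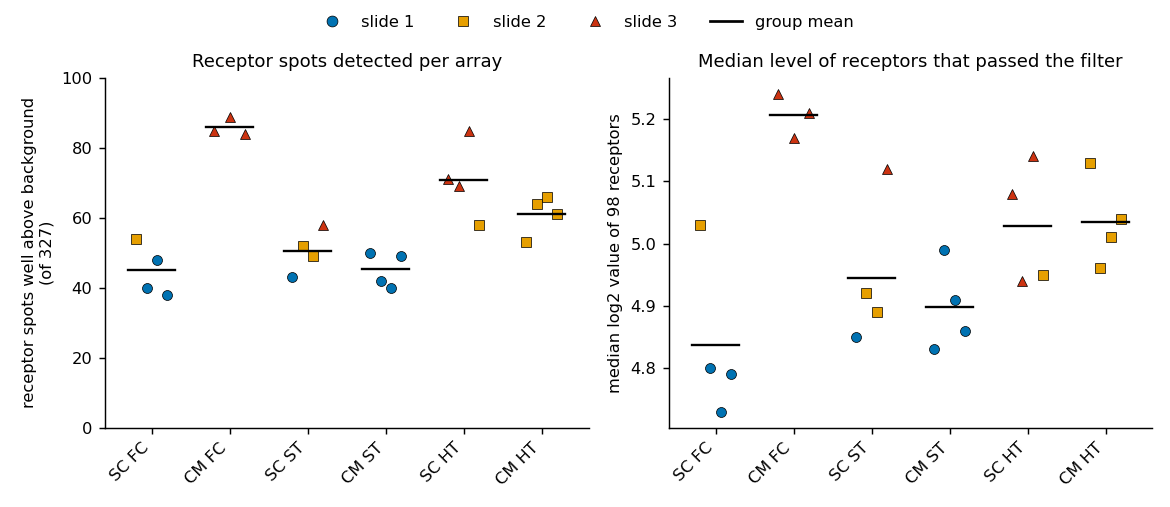
Left, number of the 327 receptor spots well above background on each of the 23 arrays; right, median normalized log2 value of the 98 receptors that passed the filter, on each array, with an axis that does not start at 0. Symbols give the slide and bars the group mean. CM FC, all on slide 3, holds 84 to 89 spots per array and SC FC 38 to 54, and the SC HT array with 85 spots is on slide 3 too.

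The CM-SC contrast in the frontal cortex called 10 of the 98 receptors higher and 0 lower, at 2-fold and an adjusted p under 0.01. The background was 2.66% called higher and 0.28% called lower among all 31395 identifiers tested. The 10 were Vmn1r195, Vmn1r52, Vmn1r56, Vmn1r227, Vmn1r231 and Vmn1r214 of type 1 and Vmn2r4, Vmn2r62, Vmn2r20 and Vmn2r13 of type 2. In each of them all 3 CM FC arrays were above all 4 SC FC arrays. This describes receptors picked on these same arrays and adds no support, and the share over all identifiers was not counted. When slide was added to the model as a fixed block, none of the 31395 identifiers was called for diet in any region, and 1 of the 98 receptors had an unadjusted p under 0.05 in FC (1.02%, against 7.07% of all identifiers). The standard error of the receptors' diet difference in FC had a median of 0.384 in place of 0.196 (log2). FC has no SC array on slide 3. Its slide 3 term therefore comes from SC arrays of ST and HT and is taken to hold in FC too. Among these arrays are SC ST of L52, L54 and L58 and SC HT of L58, on which tissue markers were uneven. All FC values with slide in the model, here and below, rest on this, and whether it holds was not tested.

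Among type 1 receptors, Vmn1r195 had the largest difference. Its normalized log2 values were 6.34, 5.66, 5.48 and 5.63 in SC FC (L52, L54, L56, L58) and 7.11, 7.31 and 7.19 in CM FC. The fitted difference was 1.54 (SE 0.18, adjusted p = 2.68e-05, 2.92-fold), and 0.17 with slide in the model. The values were 5.60, 6.62, 6.46 and 7.11 in SC ST, where the lowest array is on slide 1 and the highest on slide 3. In SC HT the 3 arrays of slide 3 had 7.11, 7.02 and 7.27, and the array of slide 2 had 6.47. Values of Vmn1r195 near those of CM FC were also seen on slide 3 in chow-fed mice, in ST and HT. Region, tissue content and slide cannot be told apart in this comparison. In CM ST it was 5.91, 5.57, 5.44 and 5.81, and in CM HT 6.55, 6.55, 6.68 and 6.47, with little spread within either group.

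Vmn1r52 was at 6.11, 5.91, 5.95 and 5.94 in SC FC and at 7.41, 7.55 and 7.33 in CM FC. The difference was 1.5 (SE 0.16, adjusted p = 2.56e-05, 2.82-fold) and it was 0.82 with slide in the model. Outside CM FC it reached 7.33 on 1 array, SC HT of L52 on slide 3, whereas the other 2 SC HT arrays of that slide had 6.38 and 6.62 and the SC ST array there had 6.77. Its diet differences in ST and HT were -0.04 (adjusted p = 0.917) and -0.32 (adjusted p = 0.275).

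Vmn1r56 was at 5.98, 4.34, 4.91 and 5.27 in SC FC, where 1 of 4 arrays was well above background, and at 6.30, 6.54 and 6.35 in CM FC. The fitted difference was 1.39 (SE 0.21, adjusted p = 0.00013, 2.62-fold), and 0.26 with slide in the model. For Vmn1r227 and Vmn1r231 no SC FC array was well above background, so that only a bound on the fold can be given. Vmn1r227 was at 4.98, 4.62, 4.35 and 4.42 in SC FC and at 5.85, 6.11 and 5.57 in CM FC, at least 2.38-fold higher (adjusted p = 0.000266). Vmn1r231 was at 4.44, 4.04, 4.59 and 4.85 and then at 5.65, 5.80 and 5.61, at least 2.21-fold higher (adjusted p = 0.000545). These bounds set the CM FC mean against the higher of the dim probe's own value and the lowest signal that counted as well above background on each SC FC array. With slide in the model the fitted values were 0.24 for Vmn1r227 and 0.17 for Vmn1r231, where they rest on dim SC FC spots. Both genes lie in the cluster of type 1 receptors on chromosome 17 that has Fpr-rs3 and Ppp2r1a as its nearest coding genes outside the family. Vmn1r214, in the same way, was at least 1.78-fold higher (adjusted p = 0.00151).

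Among type 2 receptors, Vmn2r4 belongs to the small group (family C) that is known to be expressed broadly in basal neurons beside the other type 2 receptors. It was at 6.32, 5.54, 5.71 and 4.96 in SC FC and at 7.22, 7.10 and 6.82 in CM FC. The difference was 1.53 (SE 0.23, adjusted p = 0.000116, 2.89-fold), and -0.10 with slide in the model. In SC ST it was at 5.47, 6.54, 5.98 and 7.24, so that the single SC ST array on slide 3 was as high as CM FC. In SC HT it was at 6.84, 6.79, 7.21 and 6.27, the last of these on slide 2.

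Vmn2r62 was at 5.72, 5.17, 4.94 and 5.06 in SC FC and at 6.24, 6.55 and 6.51 in CM FC, a difference of 1.32 (SE 0.20, adjusted p = 0.000108, 2.5-fold) that was -0.07 with slide in the model. In SC ST the values were 4.73, 5.79, 5.40 and 6.29, again lowest on slide 1 and highest on slide 3. Vmn2r20 was at 5.42, 5.62, 4.52 and 4.05 in SC FC and at 5.73, 5.65 and 6.35 in CM FC. The gap between its groups was small, since L54 at 5.62 was next to O56 at 5.65. Its difference was 1.13 (SE 0.28, adjusted p = 0.00554, 2.2-fold), and -0.13 with slide in the model. The call was lost without SC FC of L56 (1.19), SC FC of L58 (1.01) or CM FC of O58 (0.96). Vmn2r13 was at 4.51, 4.19, 4.11 and 3.75 in SC FC, with no array well above background, and at 5.22, 5.01 and 5.37 in CM FC. It was at least 1.81-fold higher (adjusted p = 0.00151), and in the other regions it was well above background on no array. Since only CM FC arrays were well above background, its call is a description.

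**Figure D2:**
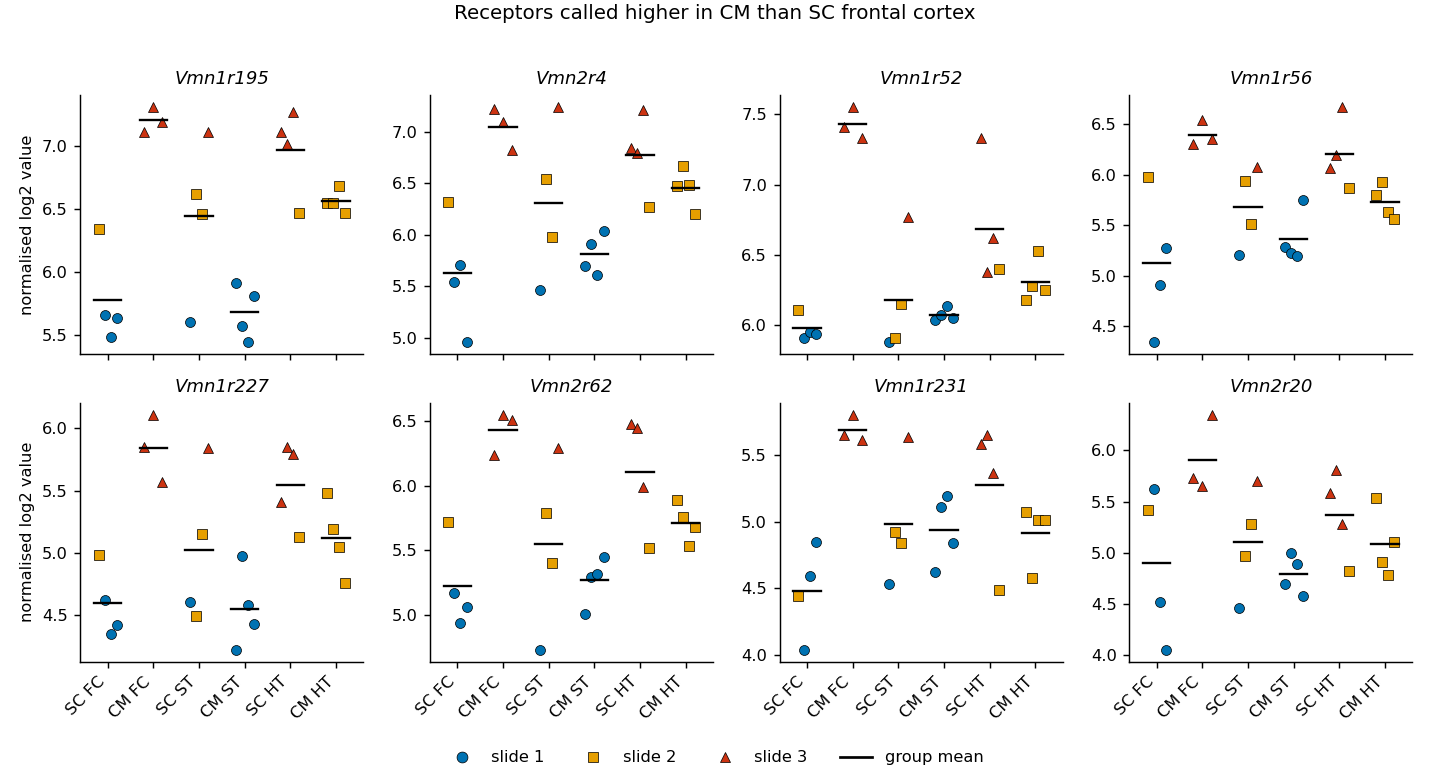
Normalized log2 values of the 8 receptors with the largest diet difference among the 10 called in the frontal cortex, on all 23 arrays by region and diet. Symbols give the slide and bars the group mean, and each panel has its own axis, which does not start at 0. In Vmn1r195 the SC ST array of slide 3 (7.11) lies in the range of CM FC (7.11 to 7.31).

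Over the 10 called receptors, the SC ST array of slide 3 (L58) was the highest of the 4 in 9, and that of slide 1 (L52) the lowest in 7. The SC HT array of slide 2 (L58) was the lowest of its group in 9, and the SC FC array of slide 2 (L52) the highest of its group in 7. Over the 98 receptors L58 was the highest SC ST array in 38 (38.8%), against 29% of all identifiers, and L52 the lowest in 45 (45.9% against 27.6%). L52 was the highest SC FC array in 50 of the 98 (51% against 31.8%). L58 was the lowest SC HT array in 31 of the 98, a share near that of all identifiers (31.6% against 28.4%). These SC arrays were all of chow-fed mice. Tissue markers were uneven on SC ST of L52 and L58 and on SC HT of L58. Mouse, slide and tissue content cannot be told apart within these arrays.

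Just inside the 2-fold threshold was Vmn1r214 (1.03), and just outside it were Vmn1r80 (0.98, adjusted p = 0.000223), Vmn1r216 (0.95, adjusted p = 0.00144) and Vmn1r204 (0.93, adjusted p = 0.000522). The median difference of the 98 receptors in FC was 0.40 on the log2 scale, with 80 above 0 and 18 below, against -0.04 over all identifiers tested. It was 0.11 with slide in the model, 0.10 over the 263 when no filter was set, and 0.36 without SC FC of L54, when 9 receptors were called. Without SC FC of L56 or L58 or CM FC of O58, the arrays with high Adora2a, it was 0.41, 0.38 and 0.39, with 11, 9 and 11 called. At an adjusted p under 0.05 with no fold limit, 41 of the 98 were called (41.8%, against 28.6% of all identifiers), 39 of them higher in CM. Of the 98, those called lower at this limit were Vmn2r48 (-0.37, adjusted p = 0.0121) and Vmn1r212 (-0.51, adjusted p = 0.0333). Both were near 0 with slide in the model (0.00 and 0.07). When no filter was set, 40 of the 263 receptors passed this limit (15.2%), which was below the share of all identifiers (18.8%).

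Other chemosensory receptors were called in FC as well. Of 336 olfactory receptor identifiers that passed, 46 were called higher and 0 lower (13.7%), with a median difference of 0.41. Of 9 bitter taste receptors 4 were called higher (median, 0.60), and of 4 trace amine-associated receptors 1 (median, 0.42). Of the vomeronasal receptors, 6 of 55 of type 1 (10.9%) and 4 of 43 of type 2 (9.3%) were called, with medians of 0.45 and 0.24, and this difference between types was not tested.

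In the striatum no receptor was called. The background there was 0.00319% of identifiers called higher and 0.599% called lower. The median difference of the 98 receptors was -0.13, with 31 above 0 and 67 below, against 0.03 over all identifiers. With slide in the model it was 0.01. Leaving out CM ST of O52 gave 2 calls, and leaving out SC FC of L52 or SC ST of L52, L54 or L56 gave 1. Without SC ST of L52, L54 or L58, on which markers of other tissue were high, the median was -0.17, -0.16 and -0.16, and without CM ST of O58 it was -0.13. At an unadjusted p under 0.05 by limma there were 18 receptors (18.4%, against 25.5% of all identifiers), and at an adjusted p under 0.05 with no fold limit 11 (11.2%, against 9.82% of all identifiers), 1 of them higher in CM. In the hypothalamus no receptor was called either, at 1.5-fold and an adjusted p under 0.05, with a background of 0.0127% higher and 0.166% lower. The median there was -0.05, with 38 above 0 and 60 below, against 0.01 over all identifiers. None of the 98 had an adjusted p under 0.05 by limma (0.43% of all identifiers did), and 22 had an unadjusted p under 0.05 (22.4%, against 13.2%).

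Vmn1r65 and Vmn1r70, type 1 receptors on chromosome 7, had differences of opposite sign in FC and ST. Vmn1r65 was at 12.18, 10.39, 11.12 and 10.35 in SC FC and at 12.22, 12.49 and 12.04 in CM FC. The single SC FC array on slide 2, L52, was in the range of CM FC. Its fitted difference of 1.40 (SE 0.39, adjusted p = 0.011) missed the threshold, and it was -0.15 with slide in the model.

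In SC ST, Vmn1r65 was at 9.68, 11.94, 11.57 and 11.12, and in CM ST at 10.21, 9.09, 9.69 and 8.41. All 4 CM ST arrays and the low SC ST array (L52) were on slide 1. The difference was -1.87 (SE 0.43, adjusted p = 0.0113), just outside the threshold, and -0.38 with slide in the model. In SC HT it was at 10.32, 11.41, 11.41 and 10.53 and in CM HT at 11.41, 11.18, 11.34 and 11.64, with a difference of 0.28 (adjusted p = 0.775). The lowest HT array, SC HT of L52, was on slide 3.

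Vmn1r70 was at 9.18, 8.32, 8.24 and 8.58 in SC FC and at 9.09, 9.16 and 9.16 in CM FC, a difference of 0.67 (adjusted p = 0.00144). In ST it was at 8.49, 9.34, 9.02 and 9.60 with SC and at 8.31, 8.23, 8.55 and 8.34 with CM, a difference of -0.72 (adjusted p = 0.00766). In HT all 8 arrays were between 8.82 and 9.06, and the difference was 0.02 (adjusted p = 0.969). All 8 arrays of slide 1 were between 8.23 and 8.58, and all arrays of the other slides were at 8.82 or above. Vmn1r87, a further type 1 receptor of chromosome 7, was at 7.73, 9.08, 8.63 and 8.85 in SC ST and at 7.70, 7.98, 8.09 and 7.78 in CM ST, where the low SC array was again L52 on slide 1. Its difference in ST was -0.75 (adjusted p = 0.105) and in FC 0.92 (adjusted p = 0.013).

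The diet effect was tested for a difference between regions. For FC against ST, 36 of the 98 receptors passed an adjusted p under 0.05 (36.7%), against a background of 30.1% of all identifiers. For FC against HT it was 35 (35.7%, background 20%), or 23 without SC FC of L54. For ST against HT it was 0, as over all identifiers (0%), with 12 receptors at an unadjusted p under 0.05 by limma (12.2%, against 14.8%). That count was 6 at the adjusted threshold without SC ST of L54, and 4 without SC FC of L52, SC ST of L52 or SC ST of L56. With slide in the model none of the 98 receptors passed in any of the 3 tests, and none of all 31395 identifiers did. At an unadjusted p under 0.05 there were 2, 0 and 1 receptors (2.04%, 0% and 1.02%, against 4.68%, 4.8% and 1.85% of all identifiers). The share for FC against ST was near the background, and the median of these differences was 0.57 against -0.09 over all identifiers.

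Slide itself was tested in the model that holds both. Of the 98 receptors 6 differed between slides at an adjusted p under 0.05 (6.12%), against a background of 8.13%. The count was 3 without SC ST of L52 and 15 without SC HT of L58. They were Vmn1r195 (F = 24.2, adjusted p = 0.00056), Vmn1r70 (F = 19.7, adjusted p = 0.00147), Vmn2r62 (F = 14.1, adjusted p = 0.00594), Vmn2r4 (F = 11.7, adjusted p = 0.0125), Vmn1r204 (F = 8.45, adjusted p = 0.0373) and Vmn2r121 (F = 8.23, adjusted p = 0.0405). Vmn1r195, Vmn2r62 and Vmn2r4 are among the 10 called for diet in FC without the slide term. The fitted term of slide 2 over slide 1 had a median of 0.19 over the receptors, with 73 above 0 and 25 below, against -0.04 over all identifiers. That of slide 3 over slide 1 had a median of 0.26, with 68 above 0 and 30 below, against -0.05.

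**Figure D3:**
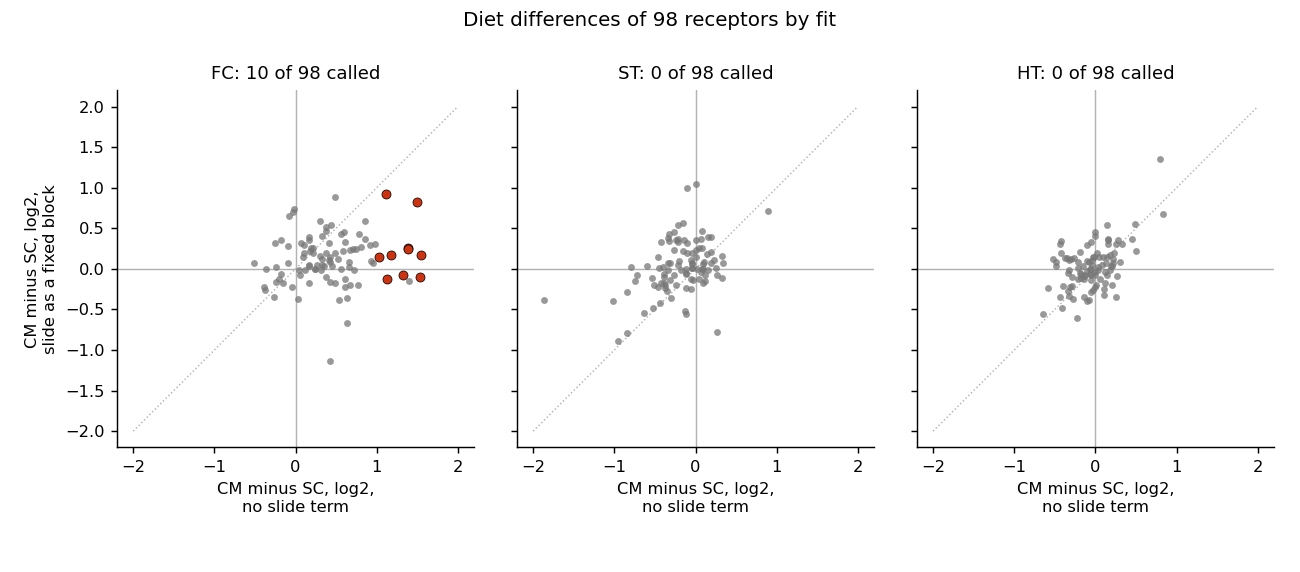
CM minus SC difference (log2) of the 98 receptors in each region, without a slide term on the horizontal axis and with slide as a fixed block on the vertical axis; the dotted line marks equal values and filled red points the 10 receptors called in FC. In FC 8 of the 10 red points lie between -0.13 and 0.26 on the vertical axis, and Vmn1r52 (0.82) and Vmn2r13 (0.92, fitted from SC FC spots of which none was well above background) lie above. The slide 3 term used in FC comes from SC arrays of ST and HT.

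In chow-fed mice Vmn2r86, a type 2 receptor of chromosome 10, was higher in the frontal cortex than in the other regions. It was at 7.92, 7.72, 8.11 and 7.77 in SC FC, at 6.92, 7.47, 6.34 and 6.57 in SC ST, and at 6.42, 6.63, 6.89 and 6.81 in SC HT. All SC FC arrays were above all arrays of the other regions. It was the receptor called for ST minus FC, at -1.18 (SE 0.21, adjusted p = 0.00183), 1 of 98 (1.02%) against a background of 0.86% lower and 1.23% higher. HT minus FC was also -1.18 (adjusted p = 3.21e-05). With slide in the model these were -1.07 (adjusted p = 0.00536) and -1.0 (adjusted p = 0.0553). Without SC ST of L56 the first was -0.62 and no longer called. In CM mice Vmn2r86 was at 7.98, 8.19 and 8.03 in FC and between 6.74 and 7.08 in ST and HT.

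Vmn2r88, Vmn2r16 and Vmn2r17, also type 2 receptors, were lower in SC ST than in SC FC in the model with slide at an adjusted p under 0.05. With Vmn2r86 and Vmn1r81, a type 1 receptor that was higher (0.34, adjusted p = 0.0385), they made 5 of the 98 (5.1%), against 10.9% of all identifiers. Vmn2r88 was at 7.30, 7.17, 7.71 and 7.38 in SC FC and at 6.73, 7.23, 6.52 and 6.75 in SC ST, with a difference of -0.65 (adjusted p = 0.0236). Vmn2r16 was at 5.86, 5.49, 5.58 and 5.48 in SC FC and at 4.71, 4.80, 4.70 and 4.61 in SC ST, with a difference of -0.96 (adjusted p = 0.00199). Its groups did not overlap, and HT minus FC was -0.79 (adjusted p = 0.0473), in a comparison where 3 of the 98 passed (3.06%, against 14.8% of all identifiers). Vmn2r17 had -0.98 (adjusted p = 0.0131) with slide in the model and -0.28 (adjusted p = 0.51) without it, so that its call rests on the slide term. Since the probe of Vmn2r86 shares 27 bases with that of Vmn2r17, signal of one gene on both probes cannot be told apart from signal of both.

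For HT minus FC on chow, 5 receptors were called higher (5.1%, background 4.38%) and 2 lower (2.04%, background 4%). The higher ones were Vmn1r195, Vmn2r4, Vmn1r56 and Vmn1r227, which are also among those called for diet in FC and use the same SC FC arrays, and Vmn1r48. With slide in the model the first 4 were at 0.11, -0.15, 0.23 and 0.10. Vmn1r48, a type 1 receptor of chromosome 6, was at 6.84, 6.47, 6.29 and 6.69 in SC FC and at 7.29, 7.55, 7.66 and 7.82 in SC HT. Its difference was 1.08 (adjusted p = 0.00013, 2.12-fold), and 0.75 with slide in the model (adjusted p = 0.105). The 4 CM HT arrays were at 7.35, 7.53, 7.56 and 7.26, in the range of SC HT.

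The lower ones were Vmn2r86 and Vmn1r222. Vmn1r222, a type 1 receptor, was at 5.53, 4.76, 5.71 and 5.00 in SC FC and at 3.97, 4.46, 4.34 and 4.04 in SC HT, with no SC HT array well above background. It was at least 1.91-fold lower in SC HT (adjusted p = 0.00149). In CM mice it was at 5.68, 5.82 and 5.80 in FC and between 3.74 and 4.08 in HT, so that it was low in HT on both diets. For HT minus ST no receptor was called (background, 1.95% higher and 2.83% lower), with 19 at an unadjusted p under 0.05 by limma (19.4%, against 33% of all identifiers).

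**Figure D4:**
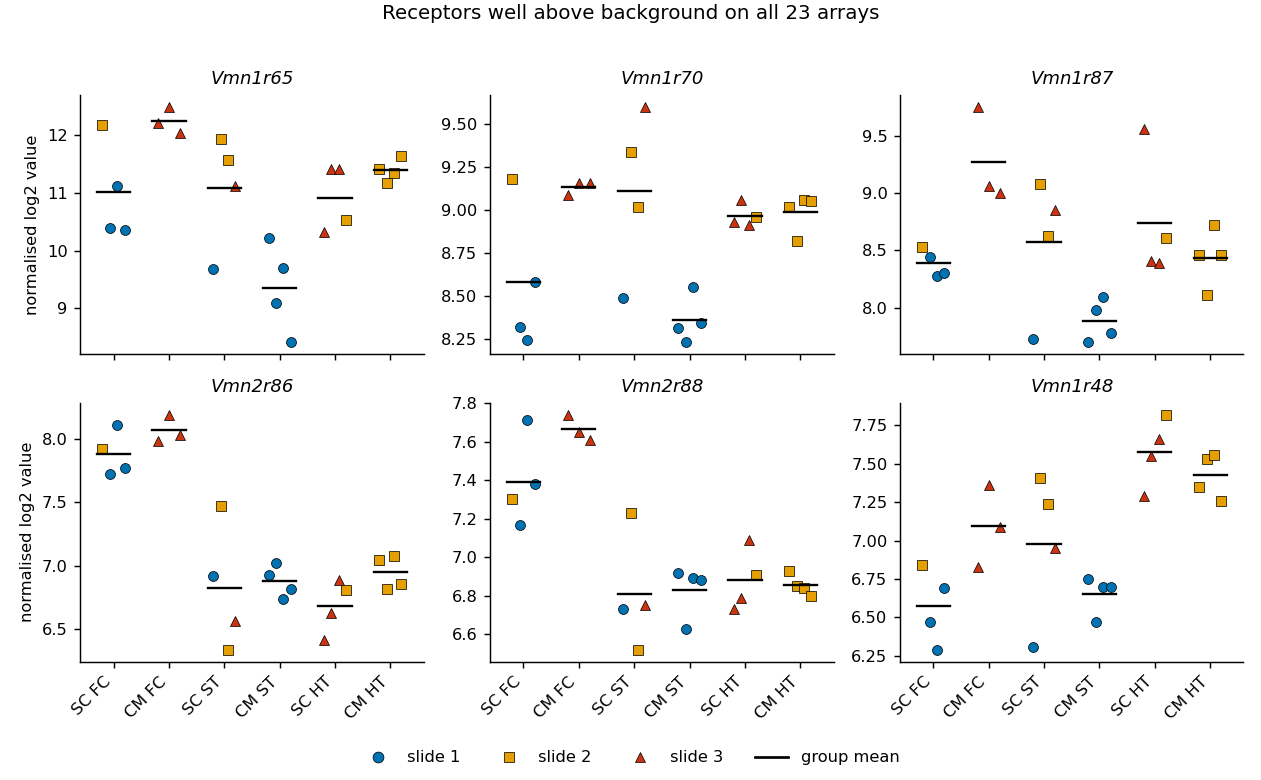
Normalized log2 values of 6 receptors that were well above background on all 23 arrays, by region and diet. Symbols give the slide and bars the group mean, and each panel has its own axis, which does not start at 0. Vmn1r70 is lower on every array of slide 1 (8.23 to 8.58) than on the arrays of the other slides (8.82 or above), whereas Vmn2r86 is higher in FC on both diets and all slides.

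In all, 24 identifiers, that of Vmn2r-ps14 among them, had every spot of the probes that passed the filter well above background on all 23 arrays. Of these, 3 (Vmn2r3, Vmn2r111 and Vmn2r121) have a further probe that did not pass and was well above background on 1, 0 and 1 arrays. Besides those described, the 24 include Vmn1r192, Vmn1r25, Vmn2r29, Vmn2r3, Vmn2r10, Vmn2r33, Vmn2r43, Vmn2r46, Vmn2r48, Vmn2r85, Vmn2r111, Vmn1r26 and Vmn1r173. Vmn1r25 was between 7.03 and 7.65 over the 23 arrays, and Vmn2r46 between 6.27 and 6.87. Vmn2r111 was lower in FC of both diets (5.93 to 6.54) than in SC HT (6.79 to 7.54), and in ST it was at 6.37, 7.44, 7.24 and 6.75 with SC and at 6.32, 6.18, 6.35 and 6.22 with CM.

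The identifier of Vmn2r-ps14 was at 8.81 to 9.53 over the arrays. The RefSeq table (GRCm38.p6) gives its sequence record the name Smarca5-ps, a pseudogene of a chromatin remodeling gene. Its signal is therefore not read here as that of a receptor, although the identifier stays in the counts and medians. RefSeq matched 261 of the 263 identifiers and listed 256 of them as protein coding. Without this identifier and the second one of Vmn1r90, which is a testis cDNA with another description, the 10 calls in FC were unchanged in number.

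Where receptors are nearly identical, 1 probe can read several genes. The probes of Vmn2r46 and Vmn2r48, shown next because both were above background on all arrays, match at 54 of 60 bases, and capitals mark the 6 bases that differ.
Vmn2r46: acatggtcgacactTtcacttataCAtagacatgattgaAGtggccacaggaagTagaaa
Vmn2r48: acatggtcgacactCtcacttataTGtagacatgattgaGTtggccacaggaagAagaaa

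The Vmn2r46 probe lies at chr7:8324342-8324401 (plus strand) and the Vmn2r48 probe at chr7:10526121-10526180 (minus strand). On these 2 probes the diet difference in FC was -0.24 and -0.19. A probe of Vmn2r35 that matches each of them at 54 of 60 bases had 0.64. Among the other pairs of similar receptor probes, Vmn1r124 and Vmn1r183 had 0.67 and 0.76, whereas Vmn2r114 and Vmn2r113 had -0.16 and 0.61. In the array annotation, 222 of the 300 probes match 1 RefSeq transcript, 36 match 2, 10 match 3, 29 match 4 and 3 match none. A value on a probe with several matches can be that of a group of genes. Probes of 1 receptor also disagreed. The probes of Vmn2r16 had -0.23 and 0.61 in FC, and those of Vmn1r217 had 0.30 and 0.83.

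Genes that act beside the receptors in the vomeronasal organ were read from lists. Of the 12 genes listed for vomeronasal signal transduction all passed the filter and 0 were called for diet in any region. Trpc2, the channel of both neuron types, was well above background on all 23 arrays, at 8.05 to 8.85. Its diet difference in FC was 0.45 (adjusted p = 0.00382) and in ST -0.39 (adjusted p = 0.043). Kcnn3 of the same list went the other way, at -0.61 in FC (adjusted p = 0.0014) and 0.54 in ST (adjusted p = 0.0203). The median over the identifiers of this list was -0.01 in FC and 0.08 in ST. Gnai2 and Gnao1, which brain tissue also expresses widely, were at 13.36 to 14.01 and, for 1 of the 2 identifiers of Gnao1, at 14.03 to 14.89. Of the nonclassical class I genes that accompany type 2 receptors in basal neurons, 3 of 8 on the array passed and none was called. H2-M10.2, H2-M10.4, H2-M10.6 and H2-M9 were well above background on no array.

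Of the formyl peptide receptors of the vomeronasal organ, 3 of 4 passed. Fpr3 was called higher in CM FC (1.04, adjusted p = 0.00378), Fpr-rs6 was at 1.15 (adjusted p = 0.0114) and Fpr-rs3 at 1.32 (adjusted p = 0.0251). Each was well above background on 10 of the 23 arrays. Among the pheromone ligands, which are carrier proteins of urine and glands, 10 of 12 passed and Obp1a, an odorant-binding protein, was called higher in CM FC (1.03, adjusted p = 0.000127). Mup2, a major urinary protein, was at 0.66 in FC (adjusted p = 0.00146) and -0.62 in ST (adjusted p = 0.0149). Of the 13 identifiers of 10 genes listed for vomeronasal neuron development, 0 were called for diet. In SC HT 7 were lower than in SC FC, against a background of 4% of all identifiers, led by Bcl11b (-2.67, adjusted p = 7.06e-06). The mean of that Bcl11b identifier was higher in SC ST (11.71) than in SC FC (10.51) or SC HT (7.89). Whether these differences have to do with vomeronasal neurons was not tested.

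Markers of other olfactory tissue were uneven between arrays. The SC FC array of L54 had Omp, the marker of mature olfactory neurons, at 13.45, above every other array. The summed level of the 5 olfactory bulb markers was 1244 to 27217 in SC FC and 1154 to 1488 in CM FC, 1772 to 2691 in ST and 3456 to 18023 in HT. Th, which is also a gene of dopamine neurons outside the bulb, made up most of the sum in HT (11.57 to 14.10), and the other 4 markers summed to 450 to 17331 in SC FC, 371 to 397 in CM FC, 513 to 616 in ST and 424 to 627 in HT. That array had 40 receptor spots well above background, the second lowest of SC FC, and without it 9 receptors were called in FC. Of the 11 olfactory sensory neuron genes, Rtp2, which helps carry odorant receptors to the cell surface, was called higher in CM FC (1.29, adjusted p = 0.000498) and was at -1.11 in ST (adjusted p = 0.012). In FC, Cnga2 went the same way (0.35, adjusted p = 0.0114) and an identifier of Cngb1 the other way (-0.57, adjusted p = 0.0343). The median over the identifiers of this list was -0.16 in FC and 0.10 in ST, so that Rtp2 does not stand for the list. The part of these markers in the receptor values was not tested.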

How the data were processed

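RNA of 23 samples was hybridized to one-color arrays. Spot brightness was deposited as linear intensity (Feature Extraction 10.7.3.1), together with the authors' table of filtered and averaged log2 values. The log2 values were rebuilt for 31395 identifiers, with a largest deviation from the deposited table of 5e-09. Genes, mm9 positions and detection flags come from the scanner files. The tools were limma 3.58.1 (R 4.3.3), statmod 1.5.0 and, in version 1.17.8, data.table. Normexp without an offset and quantile normalization were applied to the median intensity. The filter kept a probe whose log2 value exceeded 1.1 times that of the negative controls' 95th percentile on 4 arrays or more, and probes of one transcript identifier were then averaged. All arrays entered one limma model of 6 group means, weighted by array, in which the mouse was a random block (its correlation was -0.0398), and p-values were adjusted (Benjamini-Hochberg) over all identifiers. Regions of one mouse share its number, so that the mouse pairs the arrays across regions. Thresholds were 2-fold with an adjusted p under 0.01 for FC, ST and regions, 1.5-fold with 0.05 for HT, and 0.05 for slide and for differences of diet effects. Precision is limited by how few arrays a group has. The model was tested on simulated data.

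The receptors and the lists were chosen with earlier results of these data known. Named are up to 8 receptors per region called for diet without overlap of the groups, the 10 with the highest mean, those with every spot of the probes that passed well above background on all arrays, up to 5 called per region contrast and for slide, and listed genes. Others were named after their values were seen. Alternatives changed the slide and mouse terms, weights, background, scaling, filter, averaging, thresholds and single arrays. Sequences are those of the array annotation, and names and neighbors were looked up in RefSeq (GRCm38.p6).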

Additional observations from a re-analysis of the deposited data

Results flagged for a closer look

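Single arrays far from the rest of their group were looked for in 165 groups of 4 arrays of the 31 named receptors and of the per-array spot counts and medians, and 9 were found, about as many as chance gives at 1 in 20 groups. In SC FC the array of L52 was apart for Vmn1r204 (7.11, others 6.23 to 6.30), Vmn2r121 (6.52, others 6.11 to 6.15) and Vmn2r33 (6.52, others 6.91 to 6.95), and this was the one SC FC array on slide 2. In CM ST it was O58 for Vmn1r56 (5.75, others 5.19 to 5.28) and O54 for Vmn2r88 (6.63, others 6.88 to 6.92). In SC HT it was L54 for Vmn1r173 (5.28, others 6.06 to 6.09). In CM HT it was O54 for Vmn1r231 (4.58, others 5.01 to 5.07) and Vmn1r70 (8.82, others 9.02 to 9.06), and O58 for Vmn1r26 (5.38, others 5.64 to 5.69).

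The diet effect differed between FC and ST by limma in 21 of the 31 named receptors (adjusted p under 0.05), against 30.1% of all identifiers. Of the 31, 8 were named because they were called for diet in FC, so that this count was partly fixed by the choice. The difference was 3.27 for Vmn1r65, 2.33 for Vmn1r195, 1.95 for Vmn2r4, 1.83 for Vmn1r227, 1.72 for Vmn1r56, 1.66 for Vmn1r87 and 1.59 for Vmn2r62. It was 1.53 for both Vmn1r52 and Vmn1r204, 1.47 for Vmn2r20, 1.39 for Vmn1r70, 1.13 for Vmn1r231, 1.08 for Vmn1r48, 0.96 for Vmn1r217 and 0.93 for Vmn2r3. It was 0.88 for Vmn2r111, 0.87 for Vmn2r121, 0.80 for Vmn2r85, 0.79 for Vmn1r26, 0.70 for Vmn1r192 and, in the other direction, -0.62 for Vmn2r48.

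Between FC and HT it differed in 17 of them, against 20% of all identifiers and with the same limit from the choice. The difference was 2.03 for Vmn1r195, 1.97 for Vmn1r56, 1.95 for Vmn2r4, 1.90 for Vmn1r227, 1.82 for Vmn1r52, 1.74 for Vmn2r62, 1.62 for Vmn1r231 and 1.51 for Vmn2r20. It was 1.13 for Vmn1r87, 1.12 for Vmn1r204, 0.91 for Vmn1r217, 0.75 for Vmn1r48, 0.68 for Vmn2r121, 0.65 for both Vmn1r70 and Vmn2r3, 0.55 for Vmn1r26 and -0.48 for Vmn2r48. None of these differences passed with slide in the model, nor did any other identifier tested. The diet difference in receptor spots per array was larger in FC than in ST by 46.2 spots and than in HT by 50.8 spots, and the part of slide in it was not tested.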

How the results depend on the processing

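Counts below, those without single arrays included, are of receptors called, mostly without the share of all identifiers called under the same setting. A count that moved is therefore not by itself a result about the receptors. At an adjusted p under 0.05 alone, 41.8% of the receptors passed for FC, against 28.6% of all identifiers. For ST these shares were 11.2% and 9.82%. With slide as a fixed block, no identifier of the array passed for diet. In FC they were 0 with slide as a fixed block, 2 with slide as a random block, 5 without array weights, 2 with a background offset of 50, 37 after scaling to the 75th percentile, 32 at 1.5-fold with an adjusted p under 0.1, and 41 at an adjusted p under 0.05 alone. In ST there was 1 call with REML weights, mean signal, the offset, the 75th percentile, a filter on spots well above background, 1 value per probe or the deposited table, and 9 and 11 at the 2 looser thresholds. The deposited table holds the same values to within 5e-09, so that its call does not come from other values. Why its fit differed was not tested. In HT every alternative gave 0. ST minus FC gave 0 with the offset, 3 at the 75th percentile and 11 and 10 at the looser thresholds. HT minus FC gave 0 with slide fixed, 0 with the offset, 26, 28 and 35 in the same order, and HT minus ST gave 8 and 3 at the looser thresholds. Diet effects in FC against ST differed for 0 (slide fixed), 11 (slide random), 22 (offset) and 56 (75th percentile), in FC against HT for 0, 4, 18 and 53, and 10 without weights. In ST against HT it was 3 with REML weights, 4 with the offset, 1 at the 75th percentile and 2 with the filter on spots. Slide called 31 without weights and 14 at the 75th percentile.

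With the mouse as a fixed replicate block among SC arrays, ST minus FC gave 0. Without the replicate block FC gave 10 and ST against HT 1, and no other count left 1.5 times its value.

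Medians in FC were 0.11 (slide fixed), 0.27 (offset), 0.95 (75th percentile) and 0.10 (no filter), in ST 0.01 (slide fixed) and -0.54 (75th percentile), and in HT -0.15 (75th percentile). Spots over the negative controls differed in ST by -25 (exact permutation p = 0.0286). Against the single SC array of the same slide, spots well above background differed by 2.25 in ST and 3 in HT, both reversed. With slide fixed the FC differences of Vmn2r4 (-0.10), Vmn2r62 (-0.07), Vmn2r20 (-0.13) and Vmn1r65 (-0.15) and HT minus FC of Vmn2r4 (-0.15) turned their sign. The causes were not tested.

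Leaving out 1 array gave 9 to 14 calls in FC, 0 to 2 in ST, 0 in HT, 0 to 1 for ST minus FC, 6 to 9 for HT minus FC, 0 for HT minus ST, and 3 to 15 for slide. Differences of diet effects gave 32 to 40 (FC against ST), 23 to 36 (FC against HT) and 0 to 6 (ST against HT). Medians were 0.36 to 0.44, -0.18 to -0.11 and -0.07 to -0.01. Spot differences were 38.7 to 44 in FC (where the exact test cannot pass with fewer arrays), -7.75 to -2.75 in ST and -14 to -5 in HT.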

Other observations

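Some receptors were high on single arrays of different groups. Vmn1r104, a type 1 receptor chosen here after its values were seen, was at 8.17 in CM HT of O58, at 6.95 in CM HT of O54, at 6.35 in CM ST of O58 and at 5.89 in SC HT of L56. On the other 19 arrays it was between 2.84 and 4.0, and it was well above background on those 4 arrays only. Its probe, on chromosome 7, matches 4 RefSeq transcripts, so that the gene behind the signal cannot be told apart from near-identical ones.

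Vmn1r233, a type 1 receptor of chromosome 17, was at 7.50 in CM HT of O56 and at 6.28 in SC HT of L56, and between 2.82 and 5.16 on the other 21 arrays. Its probe matches 1 RefSeq transcript. The high arrays were of both diets, and no comparison between groups was called for either receptor.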
